A study of Mus musculus with 10 samples.

Results

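The mitochondrial ribosomal protein genes are the nuclear genes named Mrpl or Mrps, for the large and the small subunit of the mitochondrial ribosome. Members were taken by symbol, Mrpl or Mrps followed by a number and at most 1 letter, with a mean of at least 1 TPM (transcripts scaled to a fixed total) over all samples. The table lists 78 such genes among its 55414 rows, 49 Mrpl and 29 Mrps, and 0 of them fell below the minimum. All 78 were also among the 20000 genes with the highest mean TPM, which were the genes tested.

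RNA-seq was run on mpkCCD cells, a mouse line of the cortical collecting duct with a C57BL/6 background, grown on membrane filters for 7 days with 0.1 nM dDAVP, an agonist of the V2 vasopressin receptor. Camk2d, the gene of the calcium/calmodulin-dependent kinase CAMK2D, was intact in 5 samples and knocked out by CRISPR-Cas9 in 5 samples. The intact samples represent 3 cell lines, the wild-type parental line and 2 transfected clones that kept Camk2d, with 2 samples each (intact clone 1 and intact clone 2). Each of the 5 knockout samples is a clone grown from a single cell (KO 1 to KO 5), 2 made with a guide for exon 8 and 3 with a guide for exon 9, so all 10 samples share the drug and a KO value rests on 1 culture of 1 clone. Where nothing says that repeat samples of an intact clone were separate cultures, p-values measure only the spread between these samples. The values are TPM, in which the reads of a gene are divided by its length and every sample is scaled to an equal total. The depth of each sample is therefore unknown, and no counting error can be given.

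Mitochondria carry their own ribosomes, which translate the few messages encoded in mitochondrial DNA, all for subunits of oxidative phosphorylation. The ribosomal RNAs come from mitochondrial DNA, but every protein of this ribosome is made from a nuclear gene, translated in the cytosol and imported. About the core that descends from the bacterial ribosome sit many proteins found only in mitochondrial ribosomes, and inherited defects in several of these genes cause disease of tissues with a high energy demand.

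The symbols do not map perfectly to subunits. Mrps18a and Mrps30 encode proteins of the large subunit despite their names, Mrpl58 encodes a peptidyl-tRNA hydrolase that frees stalled ribosomes, and Mrps36 encodes a protein now known as an adaptor of the 2-oxoglutarate dehydrogenase complex. By known homology, 47 members encode proteins with a counterpart in bacterial ribosomes and 30 encode proteins without one, with Mrps36 in neither class.

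The genes are short and many share a start region with another gene. In the GENCODE M21 annotation of GRCm38 the longest coding sequence of a member had a median of 582 nt, from 261 nt in Mrps21 to 1326 nt in Mrps30. All 78 were shorter than 1347 nt, the median of the 13187 tested protein-coding genes. Within 1000 bp of the start of a gene running away on the other strand, without overlap, lay the start of 18 of the 78 members (23.1%), compared with 10.5% of the tested protein-coding genes and 12.3% of the 7481 of them that were at least as abundant as the lowest member. With overlapping 5′ ends also allowed, the shares were 33 of 78 (42.3%), 16.5% and 19.3%. The wider rule was adopted after the first values were seen, because the first missed a known pair, and it widened the contrast. Mrpl46 and Mrps11 form this pair on chromosome 7, with starts 412 bp apart and overlapping 5′ ends. Several other partners also serve mitochondria and were picked out here for their known role. Mrps12 starts 172 bp from Sars2, the mitochondrial seryl-tRNA synthetase, Mrpl43 starts 779 bp from Twnk, the mitochondrial DNA helicase, and Mrpl36 starts 29 bp from Ndufs6, a subunit of complex I. Overlaps matter for reading the values, since the counting is not stated to use strand. The share of a member's 50-base transcript windows found in no other gene had a median of 97.1% and was at least 90% in 57 members, but was 18% in Mrpl53, 28.2% in Mrps34 and 31.8% in Mrps25, whose TPM are therefore uncertain.

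Promoter windows from RefSeq (GRCm38.p6, 250 bases before to 50 after the start) were matched to 69 of the 78 members. The letters CCGGAAG, which are bound by ETS factors such as GABP, occurred on either strand in 25 of the 69 (36.2%), in 9.12% of all 27025 windows and in 22.6% of the 6182 windows of genes as abundant as the members. AAGATGGCG, bound by YY1, occurred in 11.6% of the members, 1.49% of all windows and 4.25% of those of abundant genes. CGCATGCG, the core bound by NRF1, occurred in 10.1%, 1.91% and 4.58%. With G before this core and C after it, the form searched first, the shares were 4.35%, 0.977% and 2.43%. The shorter core was searched after these were known, and it widened the difference in percentage points. The CCAAT box, searched as CCAAT, gave 39.1%, 37.9% and 39.9%, and the GC box, searched as GGGCGG, 49.3%, 35.9% and 69.0%. TATAAA occurred in 5.80% of the members, 14.2% of all windows and 6.23% of those of abundant genes. The ETS letters end and the YY1 letters begin with AAG, so 1 stretch can hold both, and a match says only that the letters are there. These 3 promoters were picked after their values or matches were seen, and the 250 bases before the start are printed. Mrpl3 is shown as a member with the ETS letters, Mrpl22 as one with both the ETS and the NRF1 letters, and Mrps21 as the member whose KO and intact values did not overlap, with matches to the ETS, YY1 and NRF1 letters in capitals. They lie at chr9:105053018-105053267 on the plus strand, chr11:58171414-58171663 on the plus strand and chr3:95871515-95871764 on the minus strand, in that order, and each runs 5′ to 3′ up to the base before the start.
Mrpl3: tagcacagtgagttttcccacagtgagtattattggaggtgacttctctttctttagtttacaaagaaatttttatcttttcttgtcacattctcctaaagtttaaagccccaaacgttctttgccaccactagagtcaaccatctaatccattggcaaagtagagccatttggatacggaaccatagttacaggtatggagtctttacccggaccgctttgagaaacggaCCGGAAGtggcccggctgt
Mrpl22: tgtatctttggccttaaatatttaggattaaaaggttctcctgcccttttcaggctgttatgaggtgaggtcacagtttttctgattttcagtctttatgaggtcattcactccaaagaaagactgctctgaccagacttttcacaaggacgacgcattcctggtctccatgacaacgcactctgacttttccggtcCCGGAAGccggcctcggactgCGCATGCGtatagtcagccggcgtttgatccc
Mrps21: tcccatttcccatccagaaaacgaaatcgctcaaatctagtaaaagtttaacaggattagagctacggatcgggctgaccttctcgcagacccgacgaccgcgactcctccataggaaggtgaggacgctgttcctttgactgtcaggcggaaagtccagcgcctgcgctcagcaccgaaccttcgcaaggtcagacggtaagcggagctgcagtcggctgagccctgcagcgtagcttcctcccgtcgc
The printed stretch of Mrpl3 holds 1 ETS match close to the start and that of Mrpl22 1 ETS and 1 NRF1 match. That of Mrps21 holds 0 of these 3 motifs, but its full window, which runs 50 bases past the start, has the ETS letters and is among the 25.

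In these cells the members were abundant and differed widely among themselves. Their mean TPM ran from 18.97 for Mrpl1 to 476 for Mrps21, a 25.1-fold range, with a median of 109, while the median of all tested genes was 6.57 TPM. Over 100 TPM were 45 of the 78. The most abundant after Mrps21 were Mrpl42 (465 TPM), Mrps6 (425 TPM), Mrpl54 (404 TPM), Mrpl28 (325 TPM) and Mrpl33 (321 TPM). The least abundant after Mrpl1 were Mrpl23 (24.2 TPM), Mrpl19 (26.4 TPM) and Mrps36 (27.5 TPM). No member lies near the minimum of 1 TPM, so none stands just inside or just outside it.

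Grouped by symbol, the Mrpl genes had a median of 119 TPM and the Mrps genes of 104 TPM. Members with a bacterial counterpart had a median of 115 TPM and those without one 101 TPM. Shorter genes tended to the higher levels: the median was 153 TPM in the 39 members with the shorter coding sequence and 99.9 TPM in the 39 with the longer, and Spearman's rho between coding length and mean TPM over the 78 genes was -0.45, given as a description since all points share the same libraries and TPM divides by length. The 3 paralogs of bacterial S18, of which a ribosome carries more than 1, were at 274 TPM (Mrps18c), 227 TPM (Mrps18a) and 117 TPM (Mrps18b).

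Among members chosen for a well known role, 8 kept close levels in both genotypes and the others differed more. Mrps12, a decoding-site protein of the small subunit, was at 156 ± 12.1 TPM in intact and 153 ± 7.23 TPM in KO samples (SD, n = 5 each). Mrps7, in the head of the small subunit, was at 116 ± 2.98 and 115 ± 4.18 TPM. Mrpl11, at the base of the stalk where translation factors bind, was at 154 ± 6.93 and 151 ± 11.6 TPM. Mrpl44, an RNase III-like protein of the large subunit, was at 65.0 ± 1.24 and 66.8 ± 3.64 TPM, and Mrpl58 at 157 ± 9.61 and 156 ± 13.5 TPM. Mrps16 was at 81.7 ± 6.58 and 82.1 ± 3.82 TPM, Mrps22 at 28.2 ± 0.920 and 28.7 ± 3.59 TPM, and Mrps34 at 128 ± 3.10 and 129 ± 12.1 TPM. In each of these 8 genes the means differed by less than the SD of the KO samples.

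**Figure D1:**
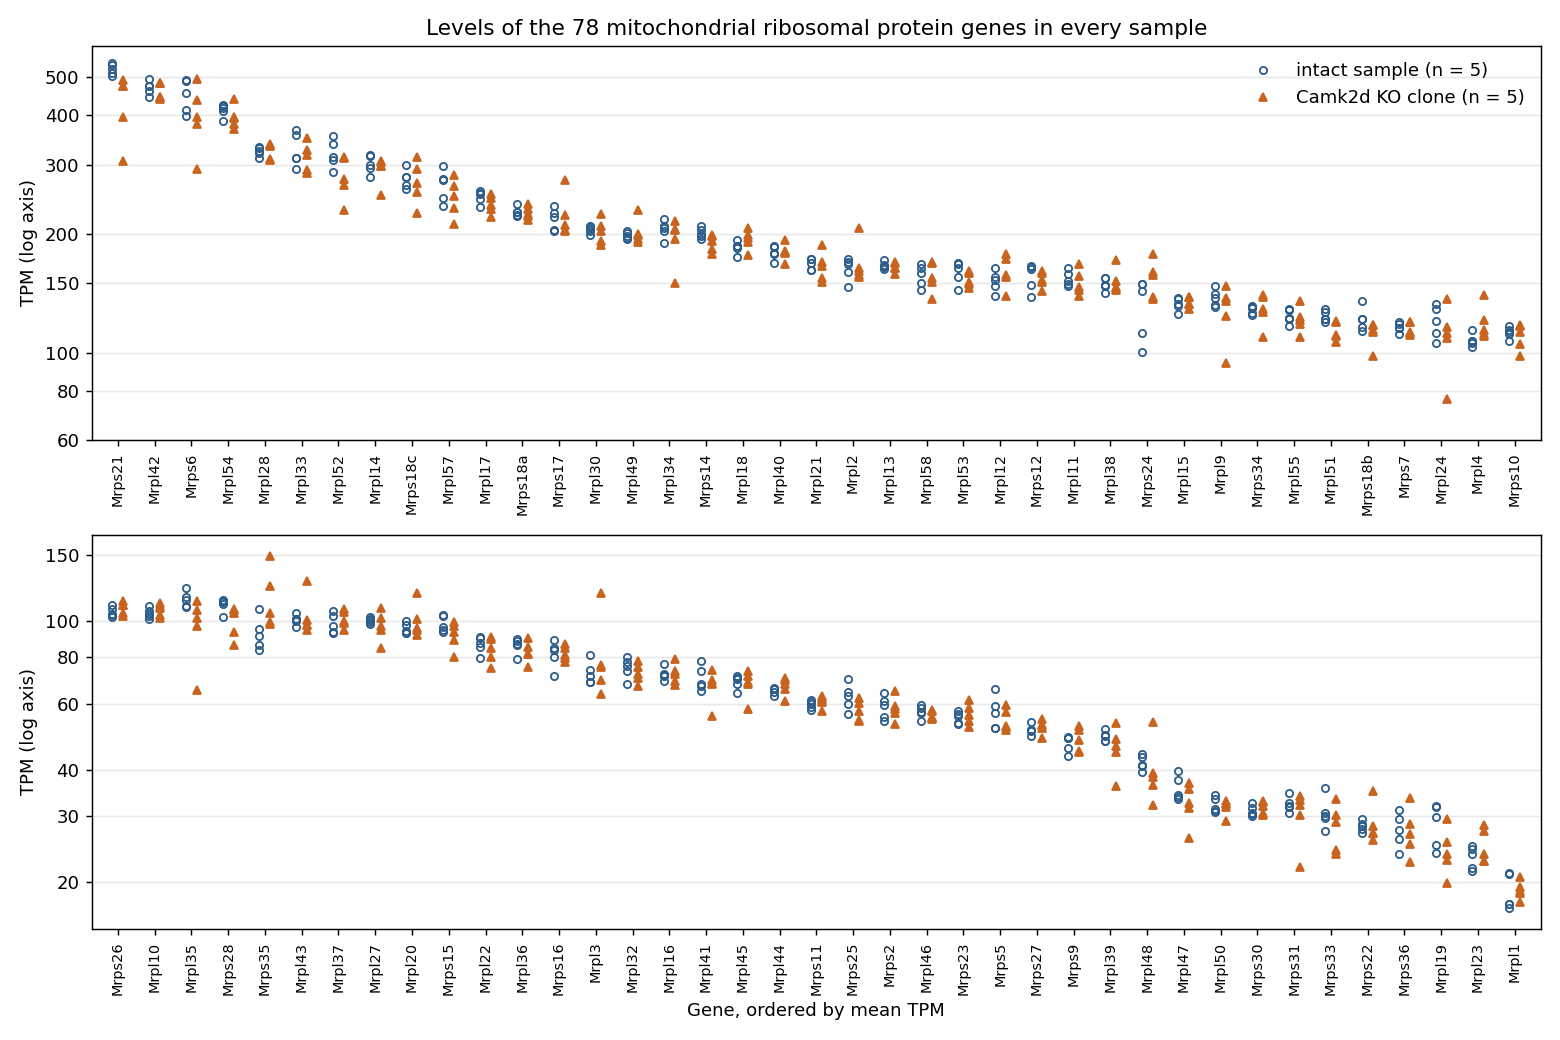
TPM of each of the 78 genes on a log axis, ordered by mean, in the 5 intact samples (open circles) and the 5 Camk2d KO clones (triangles). Levels run from Mrps21 at the left of the upper panel to Mrpl1 at the right of the lower one, and only for Mrps21 do all KO clones lie below all intact samples.

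Summed over the 78 genes, the members held a nearly fixed share of the transcripts. The sum was 10849 ± 200.2 TPM in intact samples and 10543 ± 277 TPM in KO samples (SD, n = 5 each), with a range of 10556 to 11095 TPM in intact and 10111 to 10863 TPM in KO samples, so the groups overlap. That is 1.06% to 1.11% of all TPM in intact and 1.01% to 1.09% in KO samples. KO 4 had the lowest sum and intact clone 1 sample 1 the highest. For comparison, the cytosolic ribosomal protein genes summed to between 33987 and 37394 TPM in intact samples and between 27962 and 37029 TPM in KO samples.

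The question put to the genotype is whether loss of Camk2d moved these genes. No member was called different between KO and intact samples. With limma and Benjamini-Hochberg adjustment over 20000 genes, 0 of 78 members and 1 of 20000 genes (0.00500%) had an adjusted p under 0.05. That gene was Camk2d itself, which was between 123 and 141 TPM in intact and between 19.8 and 29.8 TPM in KO samples. The lowest adjusted p of a member was 0.63. At an unadjusted p under 0.05, 2 members were higher (4.53% of all genes were) and 4 were lower (2.46% of all genes were). These counts moved with the scaling, to 1 higher and 7 lower with median-ratio scaling or quantile normalization, and to 0 and 0 with 1 value per cell line. DESeq2 and edgeR were not run, since TPM are not counts.

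The log2 ratios of KO to intact lay between -0.31 and 0.30 with a median of -0.021, and the median over all 20000 genes was 0.019. Within 0.1 of 0 were 58 of the 78 members and beyond 0.2 were 6. Half-widths of the 95% intervals ran from 0.073 to 0.32 with a median of 0.14, and for 74 members the whole interval lay within 0.5 of 0. The fit takes the repeat samples of an intact clone as independent, so these intervals may be too narrow. Fewer members than genes in general had a ratio above 0, with 28 of 78 (35.9%) beside 57.3% of all genes tested and 61.6% of the 7592 other genes as abundant. The count was 17 with median-ratio scaling and 16 with each gene centred on its chromosome neighbours, and the median was -0.0487, -0.0385 and -0.0546 with median-ratio scaling, quantile normalization and centring. Without single samples the median was -0.0326 without the parental line, -0.0127 and -0.0108 without sample 1 and sample 2 of intact clone 1, and -0.00818 without KO 4. The cytosolic ribosomal protein genes had a median of -0.12, with 12 of 85 above 0, and the nuclear genes of oxidative phosphorylation a median of -0.063, with 24 of 76 above 0. The cytosolic genes were far below the intact range in KO 1 and KO 2, slightly below it in KO 4 and within it in KO 3 and KO 5. As the median log2 deviation from the mean of the 10 samples, these genes were at -0.24 in KO 1 and -0.22 in KO 2, at -0.032, 0.070 and 0.10 in KO 4, KO 3 and KO 5, and between -0.017 and 0.14 in intact samples. Of the 85, 5 had every KO clone below every intact sample (0.445% of all genes) and 0 had every KO clone above (1.20%). Mrpl genes had a median of -0.027 and Mrps genes of -0.015, and the 2 classes by bacterial homology -0.023 and -0.019. By coding length the medians were -0.046 in the shorter and -0.0024 in the longer members, but the clones differed. As median log2 deviation from the mean of the 10 samples, the shorter members lay below the longer in KO 1 (-0.064 and 0.029) and KO 4 (-0.069 and -0.057) and above them in KO 2, KO 3 and KO 5.

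**Figure D2:**
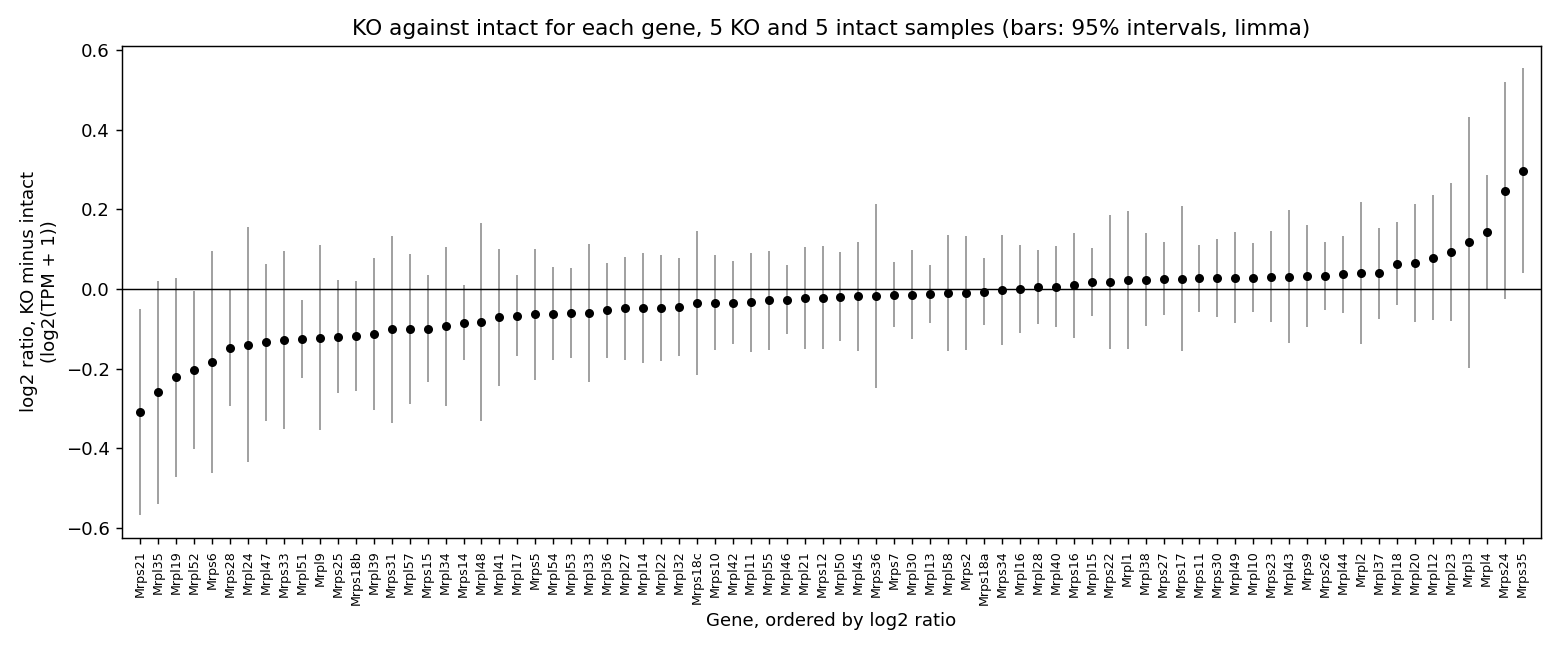
The log2 ratio of KO to intact on log2(TPM + 1) for each of the 78 genes in order, with 95% intervals from limma over 5 KO and 5 intact samples. The points run from -0.31 for Mrps21 to 0.30 for Mrps35, and no gene passed the adjusted threshold.

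Mrps21, the shortest and most abundant member and a protein of the small subunit with a bacterial S21 counterpart, had the lowest ratio. The gene lies at chr3:95862634-95871519 on the minus strand (GRCm38). It was at 502, 544, 525, 512 and 535 TPM in the parental line, the 2 samples of intact clone 1 and the 2 of intact clone 2, and at 397, 306, 475, 475 and 492 TPM in KO 1 to KO 5. It was the only member whose groups did not overlap, with every KO clone below every intact sample, as in 0.445% of all genes, while 0 members had every KO clone above (1.20% of all genes). KO 3, KO 4 and KO 5 sit just under the intact range, and KO 2 and KO 1 far below it. The KO mean was 81.9% of the intact mean, a log2 ratio of -0.31 ± 0.26 (95% interval), with limma's adjusted p = 0.65. Without KO 2 the ratio was -0.19.

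The next lowest ratios belonged to Mrpl35, Mrpl19, Mrpl52, Mrps6 and Mrps28, proteins of both subunits. Mrpl35 was at 109, 116, 123, 114 and 110 TPM in the intact samples and at 96.9, 65.4, 113, 107 and 102 TPM in KO 1 to KO 5. Its ratio of -0.26 (limma's adjusted p = 0.75) rested largely on KO 2, and was -0.13 without that clone. Mrpl19 was between 24.0 and 31.9 TPM in intact and between 19.9 and 29.4 TPM in KO samples, with a ratio of -0.22. Only 63.0% of its 50-base windows are its own, 35.5% being shared with Gcfc2, so its reads may be divided between the genes. Mrpl52 ran from 288 to 354 TPM in intact and from 230 to 313 TPM in KO samples (ratio -0.20), and Mrps28 from 102 to 114 TPM and from 86.5 to 108 TPM (ratio -0.15, and -0.0985 without KO 2). In these 5 genes the KO and intact ranges overlap, and the lowest sample is KO 1 or KO 2 in all but Mrps6, in which it is KO 4.

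Mrps6, a small-subunit protein with a bacterial S6 counterpart, was at 456, 493, 487, 412 and 398 TPM in the intact samples and at 496, 381, 396, 293 and 436 TPM in KO 1 to KO 5. KO 4 lies below the rest and KO 1 above them all. The ratio was -0.18 and changed to -0.075 without KO 4.

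At the other end stood Mrps35, Mrps24, Mrpl4, Mrpl3, Mrpl23 and Mrpl12. Mrps35, a small-subunit protein without a bacterial counterpart, was at 83.5, 86.2, 91.2, 108 and 95.1 TPM in the intact samples and at 105, 124, 98.3, 149 and 99.6 TPM in KO 1 to KO 5. KO 4 and KO 2 lie above every intact sample, and the other clones fall within or just under the highest intact value. Its ratio was 0.30 ± 0.26 (95% interval), with limma's adjusted p = 0.66.

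Mrps24, the mitochondrial counterpart of bacterial S3, was at 149, 112, 100.1, 149 and 144 TPM in intact samples and at 137, 178, 157, 138 and 160 TPM in KO 1 to KO 5. Both samples of intact clone 1 lie below all other samples, and the ratio was 0.25, or 0.16 without sample 2 of that clone. Mrpl4, beside the exit tunnel, ran from 104 to 114 TPM in intact and from 110 to 140 TPM in KO samples (ratio 0.14, and 0.0856 without KO 2). Mrpl3, near the peptidyl transferase centre, was at 71.1, 81.0, 68.7, 68.7 and 74.1 TPM in intact samples and at 75.4, 119, 63.7, 69.5 and 76.4 TPM in KO 1 to KO 5. KO 2 alone stands above the intact range, and without KO 2 the ratio went from 0.12 to -0.031, and without KO 3 to 0.193. Mrpl23 had a ratio of 0.094 and Mrpl12, a stalk protein that also binds the mitochondrial RNA polymerase, of 0.079. Single samples moved both, Mrpl23 to 0.0479 without KO 5 and 0.0615 without KO 2, and Mrpl12 to 0.0406 without KO 2, 0.0474 without sample 2 of intact clone 1, 0.0511 without KO 1 and 0.129 without KO 4.

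The second question is how far cell lines of 1 genotype differ. Repeat samples of a clone were close, the lines less so and the KO clones least. The median over members of the log2 SD was 0.046 between repeat samples of an intact clone, 0.058 among the 3 intact lines and 0.11 among the 5 KO clones. The SD among KO clones exceeded that among intact lines in 65 of 78 members (83.3%), beside 78.3% of the 7592 other genes as abundant, in which the 3 medians were 0.056, 0.076 and 0.13. The value of 2 of the intact lines is the mean of 2 samples, which shrinks their spread, while a KO clone has 1 sample. With 1 sample of each intact line, the SD among intact lines had a median from 0.0601 to 0.0742 over the 4 choices, and the KO SD was larger in 61 to 65 members (78.2% to 83.3%), beside 72.9% to 75.6% of the other genes. Many of the extreme values fell in a few clones. KO 1 and KO 2 each held the lowest value of 16 members and KO 4 of 20, and KO 2 held the highest of 20 and KO 1 of 15. KO 3 held the lowest of 4 and the highest of 3, KO 5 the lowest of 2 and the highest of 6, and KO 4 the highest of 3. An intact sample held the lowest of 2 to 7 members and the highest of 2 to 10, the most being in sample 2 of intact clone 1.

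Across the 8 cell lines, limma's moderated F test called 719 of 20000 genes (3.60%) and 1 of 78 members, Mrps6, at adjusted p = 0.048. At an unadjusted p under 0.05 the counts were 28 of 78 members (35.9%) and 28.7% of all genes. The spread in this fit comes only from the repeat samples of the intact clones. The Mrps6 call was lost under several alternatives, among them leaving out any sample of those clones (adjusted p from 0.157 to 0.201), in which 0 genes were called.

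Of the members 25 of 78 (32.1%) were higher in intact clone 2 than in intact clone 1, beside 44.1% of all genes. The comparison gave 5 calls among 20000 genes (0.0250%) and 0 among members in the same fit. Members with an unadjusted p under 0.05 were 5 higher in clone 2 (7.92% of all genes) and 9 lower (9.19%). Higher in clone 2, with no adjusted p under 0.05, were Mrps24 (log2 difference 0.46), Mrpl19 (0.32), Mrpl1 (0.28), Mrpl33 (0.26) and Mrps35 (0.19). Mrpl1, the protein of the mobile L1 stalk, was at 17.0 and 17.5 TPM in the samples of clone 1 and at 21.1 and 21.2 TPM in those of clone 2, while the parental line was at 17.5 TPM. Lower in clone 2 were Mrps6 (-0.27), Mrpl24 (-0.27), Mrps5 (-0.21), Mrps2 (-0.19) and Mrpl47 (-0.19). Mrpl24, at the exit of the tunnel, was at 129 and 133 TPM in clone 1 and at 112 and 105 TPM in clone 2. The difference of Mrps35 was 0.0989 without sample 1 of clone 2, and that of Mrps5 was -0.132 without sample 2 of clone 1. These 10 members were chosen for this difference, so its size is a description.

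Placed on the chromosomes, many of the large deviations of single clones were shared by the neighbouring genes. This comparison was chosen after the values were seen. For each sample, every gene was expressed as its log2 deviation from the mean of the intact samples, and the median was taken over the 10304 other genes with a mean of at least 5 TPM, by chromosome and over the 100 nearest genes to each member. Each intact sample is part of this mean and the KO samples are not, so deviations of intact samples are drawn toward 0 and the groups are not on equal terms. Of 200 chromosome medians, 5 were beyond 0.2 in size, all in KO 1 and KO 2, while the other values ran from -0.12 to 0.13.

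In KO 2, chromosome 3 had a median of -0.33 over 516 other genes, and all 5 members on it were lower, with a median of -0.54. These were Mrps21 (-0.77), Mrpl24 (-0.64), Mrpl9 (-0.54), Mrpl47 (-0.42) and Mrps28 (-0.35). Chromosome 9 in the same clone had a median of 0.46 over 581 genes, and all 3 members on it were higher, Mrpl3 by 0.71, Mrpl4 by 0.38 and Mrps22 by 0.30. Chromosome 5 had a median of 0.36 over 690 genes, and its 4 members, Mrpl1, Mrpl33, Mrps17 and Mrps18c, were higher by 0.10 to 0.33. The 73 members of KO 2 off chromosome 3, which include the higher ones on chromosomes 5 and 9, had a median of 0.00028.

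In KO 1, chromosome 8 had a median of -0.32 over 593 genes, and both members on it were lower, Mrps31 at -0.53 and Mrpl34 at -0.45. Mrps31 was at 22.0 TPM in KO 1 and between 30.3 and 34.6 TPM in every other sample. Chromosome 19 had a median of 0.24 over 390 genes, and its 5 members, Mrpl11, Mrpl16, Mrpl21, Mrpl43 and Mrpl49, were higher by 0.12 to 0.34.

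**Figure D3:**
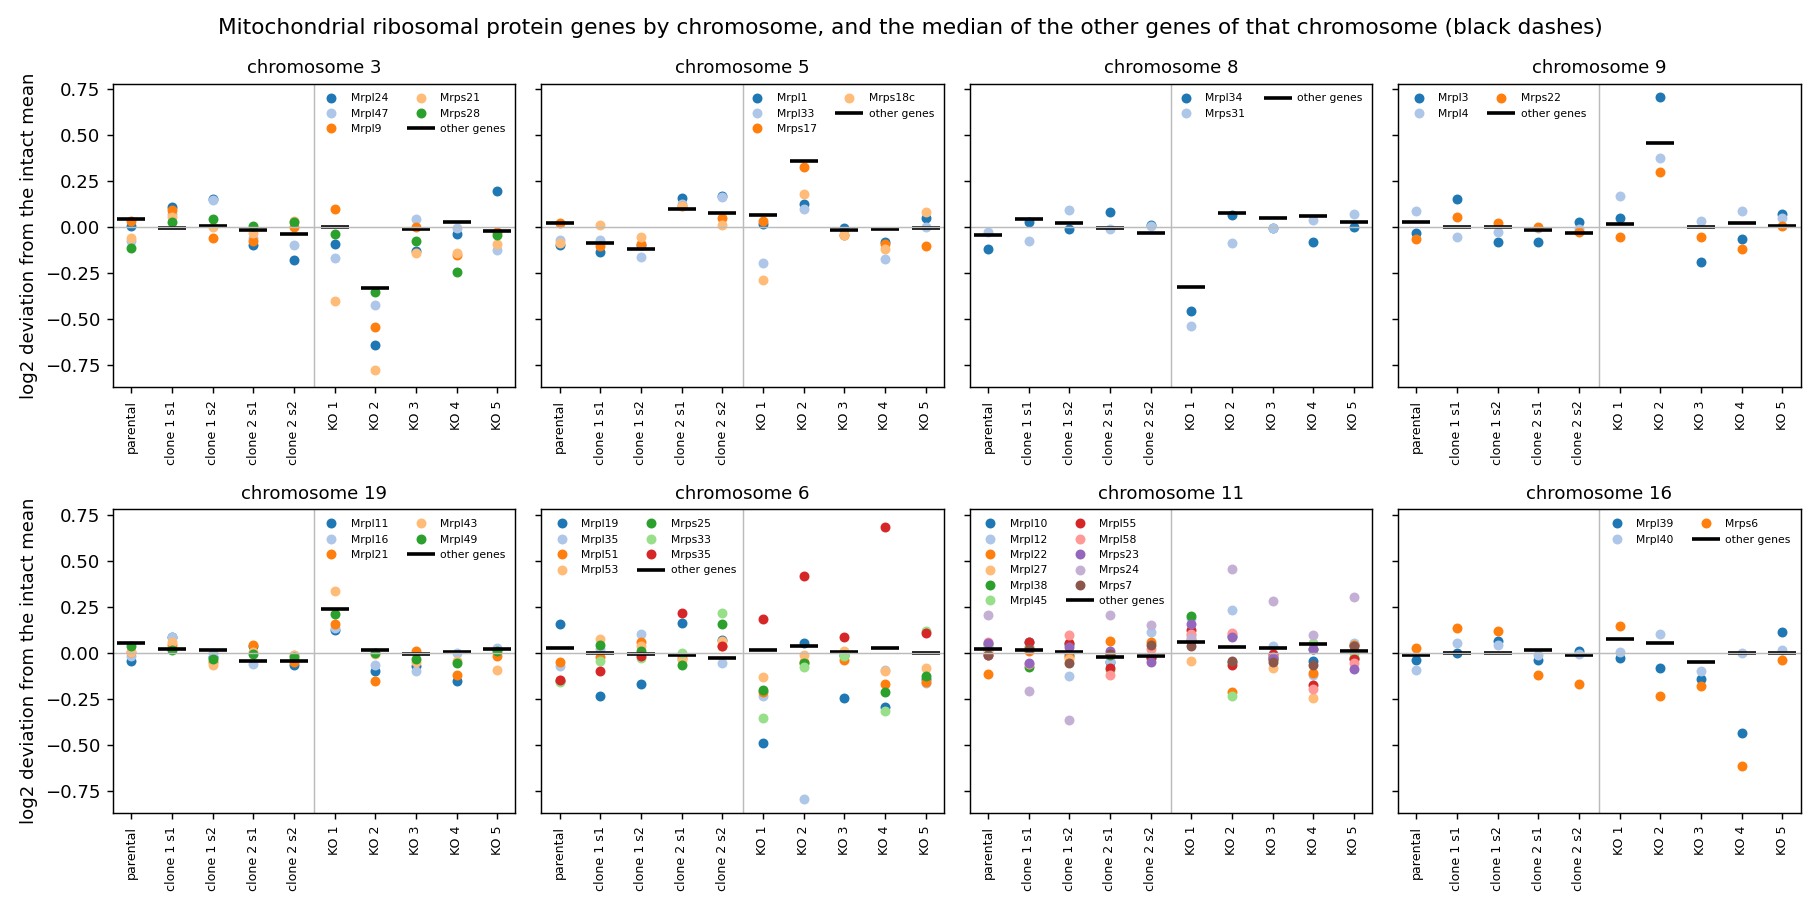
Log2 deviation from the intact mean of the members on 8 chromosomes (coloured points) and the median of the other genes of that chromosome (black dashes), in the 5 intact samples left of the grey line and the 5 KO clones right of it. On chromosomes 3, 5 and 9 the members lie with the dashes in KO 2, and on chromosomes 8 and 19 in KO 1, while Mrpl35 on chromosome 6 is at -0.80 in KO 2 where the dashes stay near 0.

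Other shifts covered a stretch of a chromosome. In KO 4 the neighbours of Mrpl39 and Mrps6 on chromosome 16 (Mrps6 at chr16:92058270-92112227, GRCm38) were at -0.32, and these members were at -0.43 and -0.61. The neighbours of Mrps35 (chr6:147042764-147073991) were at 0.23 in KO 4 with Mrps35 at 0.68, whereas in KO 2 Mrps35 was at 0.42 with neighbours at 0.044. Whole-chromosome medians of chromosomes 6 and 16 in KO 4 were 0.026 and -0.0012. Around Mrps24 (chr11:5703983-5715680) the neighbours were at -0.23 and -0.25 in the samples of intact clone 1 and between 0.13 and 0.20 in the other 8 samples. Mrps24 itself was at -0.20 and -0.36 in clone 1 and between 0.082 and 0.46 elsewhere.

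Counted over all 780 member values, neighbours were beyond 0.2 in 28, and the member deviated to the same side in all 28. Of these, 15 were in KO 2, 8 in KO 1, 3 in KO 4 and 1 in each sample of intact clone 1. The counts of KO 2 and KO 1 include Mrps24, with neighbours at 0.202 and 0.201, close to 0.186 in the parental line and in KO 3. The intact mean around Mrps24 includes the low samples of intact clone 1. Pearson's r between members and their neighbours over the 78 genes was 0.72 in KO 2, 0.66 in KO 4 and 0.58 in KO 1 and between 0.36 and 0.58 in the other samples. Spearman's rho was lower, at 0.573, 0.363 and 0.456 in these clones and between 0.137 and 0.375 in the others. Both are a description of points that share a library and, within a chromosome, their neighbours.

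Not every large deviation had neighbours beside it. Deviations of at least 0.4 in size numbered 15, all in KO clones (8 in KO 2, 4 in KO 1 and 3 in KO 4), and in 11 of them the neighbours were beyond 0.2 on the same side. The other 4 were Mrpl35 in KO 2 (-0.80, neighbours 0.036), Mrpl19 in KO 1 (-0.49, neighbours 0.012), Mrpl52 in KO 1 (-0.47, neighbours 0.036) and Mrps35 in KO 2. Mrps21 in KO 1, just under that size, was at -0.399 with neighbours at 0.00515. Among the 11 is Mrps24 in KO 2, whose neighbours (0.202) were close to those in the parental line (0.186), so they mark no shift of that clone. All 15 fall in KO clones, but intact samples are part of their own reference, which draws their deviations toward 0.

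**Figure D4:**
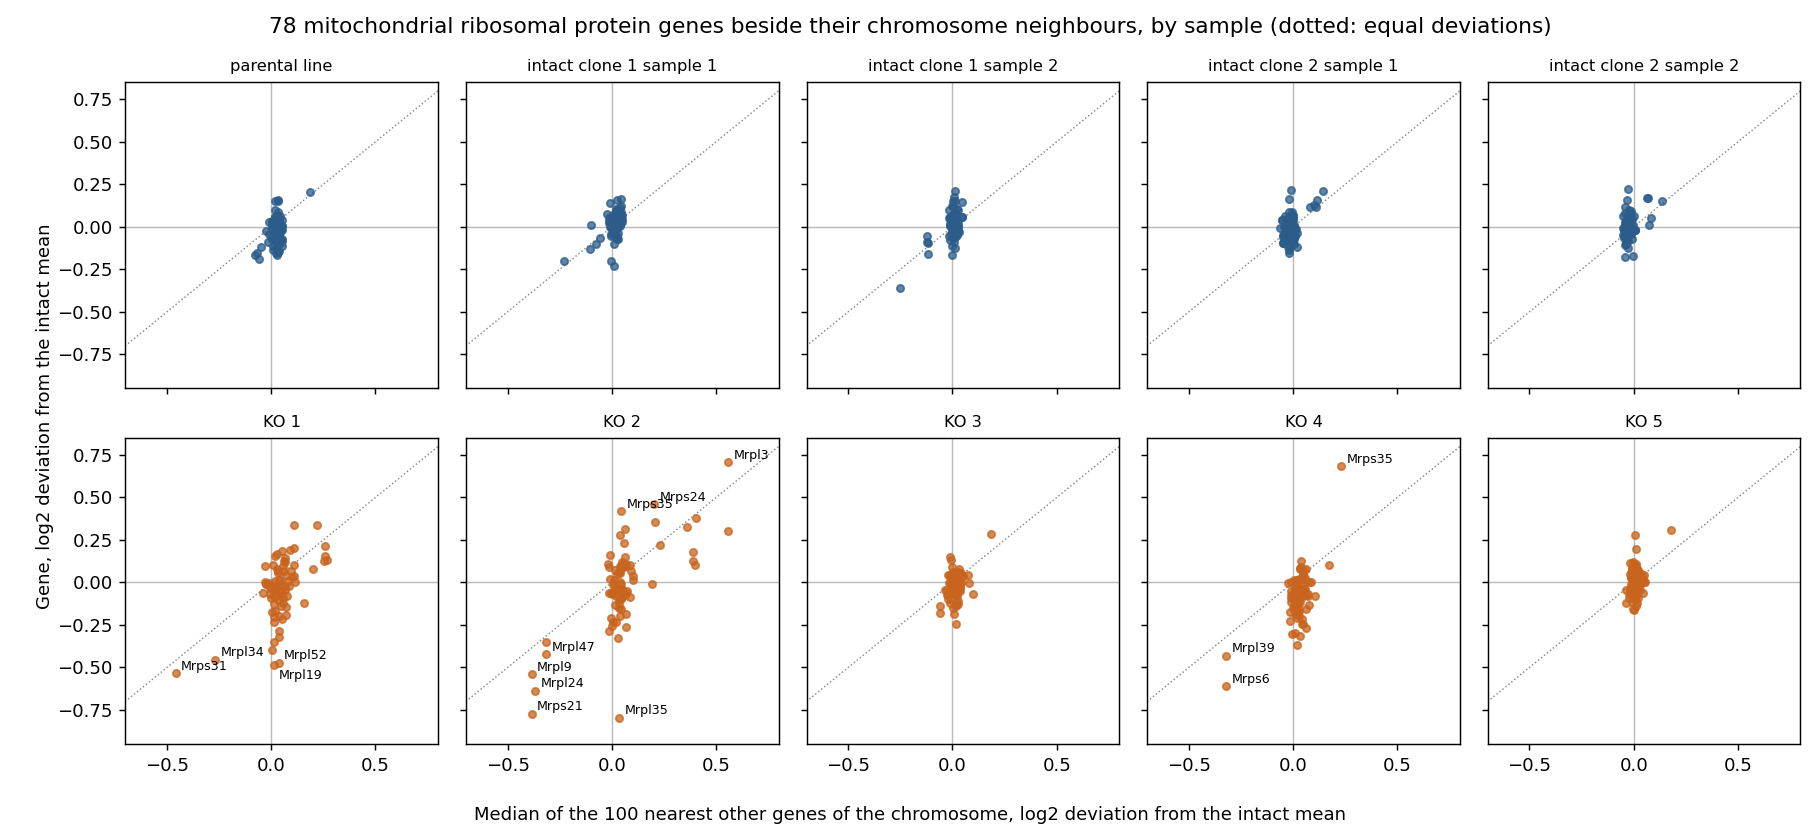
Each of the 78 genes by the median log2 deviation of its 100 nearest other genes (horizontal) and its own log2 deviation from the intact mean (vertical), 1 panel per sample, with genes beyond 0.4 named. Points spread along the dotted line of equal deviations in KO 1, KO 2 and KO 4, and Mrpl35 in KO 2 lies far below it at -0.80.

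Centring each gene on its neighbours, again chosen after seeing the data, moved some of the contrasts above. The ratio of KO to intact of Mrps24 went from 0.25 to 0.042, that of Mrpl3 from 0.12 to -0.017 and that of Mrpl4 from 0.14 to 0.041. That of Mrps21 went from -0.31 to -0.23 and that of Mrpl35 from -0.26 to -0.27. Mrps6 went from -0.18 to -0.112, Mrps28 from -0.15 to -0.0963, Mrpl12 from 0.079 to 0.0327 and Mrpl23 from 0.094 to 0.0259. Between intact clones, the difference of Mrps24 went from 0.46 to 0.059, that of Mrpl1 from 0.28 to 0.084 and that of Mrpl33 from 0.26 to 0.093, while Mrps6 stayed at -0.27 and Mrpl19 went from 0.32 to 0.35. With limma, 0 of 78 members were called between KO and intact after centring.

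Around the members, the rest of the mitochondrial translation system was also without a call between KO and intact samples. The mitoribosome proteins under other names were Dap3, Chchd1, Aurkaip1, Ptcd3 and Gadd45gip1. All 5 had a ratio under 0, from -0.12 in Dap3 to -0.0091 in Ptcd3, with a median of -0.032 and no unadjusted p under 0.05. Of 31 assembly factors, 22 had a ratio above 0 (median 0.042), from Nsun3, an RNA methyltransferase, at -0.24 to Mettl17 at 0.22. Of 20 translation factors and related proteins, 14 were above 0 (median 0.034), and the ends were Pet100, an assembly factor of complex IV, at -0.55 and Mtrf1l, a release factor, at 0.13. Pet100 was between 90.8 and 138 TPM in intact and between 50.1 and 101 TPM in KO samples (limma's adjusted p = 0.61).

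The 22 tested mitochondrial tRNA synthetase genes had a median of 0.016, with 13 above 0, between Mars2 at -0.095 and Pars2 at 0.16. The 13 genes of mitochondrial DNA maintenance and transcription had a median of 0.032, with 10 above 0, between Top1mt at -0.10 and Tfb2m, a transcription factor for mitochondrial promoters, at 0.17. Of the 11 regulators of mitochondrial biogenesis 10 were above 0 (median 0.050), the lowest being Gabpb2 at -0.027. The highest was Ppargc1a, the coactivator PGC-1α, at 17.5, 1.45, 1.75, 7.56 and 7.13 TPM in intact samples and at 39.98, 23.9, 5.44, 8.75 and 10.4 TPM in KO 1 to KO 5. Its intact and KO ranges overlap, and the ratio of 1.28 had an adjusted p of 0.76 by limma.

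The RNA partners of these proteins had lower means in KO clones and did not pass the adjusted threshold. Whether the TPM follow the amounts of these RNAs in this kind of library was not tested. mt-Rnr1, the small-subunit rRNA, was at 123, 126, 137, 139 and 135 TPM in intact samples and at 111, 92.1, 111, 108 and 85.3 TPM in KO 1 to KO 5, with no overlap, a log2 ratio of -0.38 ± 0.17 (95% interval) and limma's adjusted p = 0.38. mt-Rnr2, the large-subunit rRNA, was between 1103 and 1353 TPM in intact and between 886 and 1155 TPM in KO samples, with overlap and a ratio of -0.23 (limma's adjusted p = 0.68).

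The identity of the cells was read from markers fixed for the collecting duct and its neighbours. The 12 principal cell markers summed to between 5082 and 7066 TPM in intact and between 2462 and 5305 TPM in KO samples, ranges that overlap, and 9 of them had a mean of at least 1 TPM. The markers went both ways, with a ratio of KO to intact above 0 in 4 of the 11 tested, a median of -0.11, 0 calls and 1 lower at an unadjusted p under 0.05. Intercalated cell markers summed to at most 7.67 TPM in any sample, fibroblast markers to at most 0.61 TPM and leukocyte markers to at most 9.38 TPM, while proximal tubule markers reached 15.1 TPM, nearly all of it Lrp2. In such bulk samples fewer cells of a type and less RNA per cell cannot be told apart, and the part of the marker levels in the values of the members was not tested.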

How the data were processed

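Total RNA of the 10 samples was made into full-length cDNA, amplified and sequenced as 50-bp pairs. The authors used STAR for alignment and RSEM with an Ensembl annotation for quantification, and deposited TPM per gene in 1 column for each sample. The authors' own test used expected counts, which were not used here. TPM carry no depth, so no counting error is given.

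Groups came from the genotype labels, and guide exons from a supplement of the study. All columns were used. Repeat samples of an intact clone had identical values in 1.37% and 1.46% of the 13047 genes with at least 1 TPM and in 0 members, so each was counted as a sample.

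Values of the 20000 most abundant genes by mean TPM entered as log2(TPM + 1), with a pseudocount of 1, into limma 3.58.1 in R 4.3.3 (lmFit, eBayes with an intensity trend), Benjamini-Hochberg adjustment, calling an adjusted p under 0.05. The first fit set 5 KO against 5 intact samples and a second fit took the cell line as a factor of 8 levels. A planned permutation test of single members is not given, since it would treat repeat samples of a clone as independent. In a simulation, 200 of 20000 genes were given a log2 change of 1. The fits recovered 92.5% of these between KO and intact, 60.5% between intact clones and 15.5% among the 8 cell lines. At a log2 change of 2 the shares were 98%, 94% and 76.5%. Changes as small as those of the members were not simulated, so the simulation cannot tell whether such changes would be called. The members, gene lists and tests were chosen with earlier results of these data known.

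Log2 ratios are given for members without overlap between KO and intact samples, the 6 highest and 6 lowest ratios and the 5 largest differences each way between intact clones. Levels are given for the most and least abundant members and those of well known role, and from other lists the highest and lowest ratio. Members named in the account by chromosome were chosen after their values were seen.

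Coordinates, coding lengths and 50-base windows came from GENCODE M21 on GRCm38, and promoters from RefSeq (GRCm38.p6). The authors' annotation is a later one and their file holds no coordinates. Python 3.11.15 with pandas 2.3.3, numpy 2.4.6, scipy 1.17.1 and matplotlib 3.10.9 were used. Alternatives were a pseudocount of 0.1 or 0.5, other gene filters, median-ratio scaling, quantile normalization, 1 value per cell line, a random effect of the line, robust moderation or no trend in limma, leaving out each sample and, added later, centring on chromosome neighbours, another rule for head-to-head starts, other NRF1 letters and 1 sample per intact line.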

Additional observations from a re-analysis of the deposited data

Results flagged for a closer look

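In groups of 5 samples, a value was taken as far from the others where its gap to the nearest sample, divided by the range, exceeded Dixon's 95% critical value, with single genes taken as log2(TPM + 1). Of 70 groups looked at, 3 exceeded it, and chance gives about 1 in 20. Mrpl35 in KO 2, at 65.35 TPM, lay below the other KO clones (ratio 0.722). Mrps28 in the parental line, at 102.17 TPM, lay below the other intact samples (ratio 0.779). Mrps18b in KO 4, at 97.93 TPM, lay below the other KO clones (ratio 0.762). On TPM itself, tried later, Mrps28 (0.769) and Mrps18b (0.745) still exceeded the critical value and Mrpl35 (0.666) did not, while Mrpl3 in KO 2, at 119.08 TPM (0.770), and Mrps22 in KO 2, at 34.96 TPM (0.737), did so as the highest KO clones.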

How the results depend on the processing

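Between KO and intact samples 0 members were called under every alternative run. All genes called numbered 2 instead of 1 with a pseudocount of 0.1 and with centring on chromosome neighbours, and 1 to 2 when each sample was left out. Members with a ratio above 0 numbered 28, but 17 with median-ratio scaling, 16 with centring, and 25 to 35 without single samples. Their median of -0.0205 became -0.0546 with centring and ran from -0.0326 (without the parental line) to -0.00818 (without KO 4). Members higher and lower at an unadjusted p under 0.05 numbered 1 and 9 with centring, and from 0 to 2 and from 2 to 6 without single samples. Mrpl3 reversed to -0.0174 with centring and to -0.0306 without KO 2 (up to 0.193 without other samples), and no other changed sign among the members named for their ratio of KO to intact or difference between intact clones (genes outside the members were not rerun). Between intact clones the 5 calls became 1 with a pseudocount of 0.1, 243 with a mean of at least 1 TPM, 11 without trend, 133 with centring and 0 without any 1 sample of an intact clone (the parental line was not left out here), with 0 members throughout. Among cell lines the 719 calls became 1062 with a pseudocount of 0.1, 998 with a mean of at least 1 TPM, 451 without trend and 0 without any 1 sample of an intact clone. The member calls among lines, 1, became 5 with a mean of at least 1 TPM (Mrps6, Mrps21, Mrpl24, Mrpl35 and Mrpl52) and 0 under quantile normalization, without trend and without any 1 sample of an intact clone, and with centring the 1 call was Mrpl35, not Mrps6 (adjusted p = 0.0606). Causes of these changes were not tested, except that leaving out a sample leaves fewer residual degrees of freedom. No paired analysis was possible because replicate numbers were given in accession order and mark no shared culture. The unknown depth and the single sample per KO clone limit what could be seen.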

Other observations

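Pseudogene rows named after members, looked at after the data were seen, were low. Mrpl48-ps had a mean of 6.11 TPM, Mrpl27-ps 4.13 TPM and Mrpl23-ps1 3.90 TPM, while Mrpl23 itself was at 24.2 TPM.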
